A study of Mus musculus with 6 samples.

Results

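The genes described here are the Wnt ligands, their receptors and their secreted antagonists, with the nuclear factors that carry the Wnt signal. Members were the genes with a non-control array probe whose accession maps to a Wnt gene, Fzd1 to Fzd10, Lrp5, Lrp6, Lgr4 to Lgr6, Rspo1 to Rspo4, Dkk1 to Dkk3, Sfrp1, Sfrp2, Sfrp4, Sfrp5, Wif1, Axin2, Lef1, Tcf7, Tcf7l1, Tcf7l2 or Ctnnb1. There were 52 such genes of 20130 genes with a named probe, and they were read by 63 probes. A total of 47 members, on 55 probes, were well above background on all 3 arrays of at least 1 genotype and were tested among 16408 genes.

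Wnt proteins are secreted, lipid-modified ligands that bind a Frizzled receptor together with Lrp5 or Lrp6. Binding stops the breakdown of beta-catenin, which then enters the nucleus and activates genes with TCF/LEF factors, Axin2 among them. R-spondins act through Lgr receptors to keep Frizzled proteins at the cell surface, whereas Dkk proteins block the Lrp co-receptors and Sfrp and Wif1 proteins bind Wnts directly. In skin the pathway is known above all for forming the hair follicle and driving its regrowth, and FoxO proteins can bind beta-catenin as well.

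RNA came from dorsal skin wounds of male C57/BL6 mice on day 3 after wounding, from 3 wild-type (WT) and 3 FoxO1 +/- animals, which carry 1 disrupted copy of the forkhead factor gene Foxo1. Each mouse received 4 full-thickness wounds with a 4 mm punch, and the tissue was taken with a 6 mm punch, so that it held the wound and a rim of the skin around it. How the allele was disrupted, the age of the mice and whether the wounds of an animal were pooled are not stated in the labels used here. Each array was taken as 1 animal, and the p-values reflect variation among these 6 arrays alone. Levels are log2 values of the 1-colour Agilent array signal relative to each array's 75th percentile, so that 0 is that percentile and a difference of -1 is a halving, and values on 3 arrays are always given for replicates 1, 2 and 3 in that order.

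The share of spots well above background was 64.26% on FoxO1 +/- replicate 3 and 70.15% to 71.86% on the other arrays. The lowest level of any probe well above background was -5.04 on FoxO1 +/- replicate 3 and between -5.97 and -5.76 on the other 5 arrays. All WT arrays shared slide row 1 with FoxO1 +/- replicate 1, while replicates 2 and 3 of FoxO1 +/- lay in row 2. Foxo1 itself was measured on its brighter probe at 2.04, 1.81 and 2.32 in WT and at 1.54, 1.69 and 1.49 in FoxO1 +/- wounds. Every FoxO1 +/- value of Foxo1 lay below every WT value, a log2 difference that limma put at -0.48 (SE 0.14, adjusted p 0.650). Whether this probe reads the disrupted part of Foxo1 is not known here, so how far it checks the labels was not tested. Keratinocyte markers (6 of 6) and fibroblast markers (6 of 6) had probes well above background, as in skin.

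No member of the Wnt lists passed an adjusted p of 0.05 for genotype in limma, beside 0.00609% of all genes, which is 1 gene of 16408. In the FoxO1 +/- wounds 34 members were measured lower and 13 higher, with a median log2 difference of -0.09, beside 46.3% of all genes lower and a median of 0.01. Dkk2 and Fzd6 were lower and Rspo3 was higher at an unadjusted limma p under 0.05, which is 2 of 47 members lower beside 2.83% of all genes, and 1 of 47 higher beside 3.43%. The genotypes did not overlap, with every FoxO1 +/- array on the same side of every WT array, for 3 members that were lower (Dkk2, Fzd6 and Ctnnb1), beside 4.56% of all genes. They did not overlap either for 2 members that were higher (Rspo3 and Wnt9b), beside 6.91% of all genes. Each of these counts rests on at most 3 genes, and its share of the 47 lay near that of all genes. The lowest adjusted p of any member was 0.682, for Dkk2, and with 3 arrays on each side the smallest two-sided p of an exact permutation test is 0.1. With normexp background correction the split was 27 lower and 20 higher, beside 40.7% of all genes lower. Under the other alternatives 63.8% to 74.5% of members were lower, beside 43.3% to 54.5% of all genes. These alternatives reuse the same arrays.

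**Figure D1:**
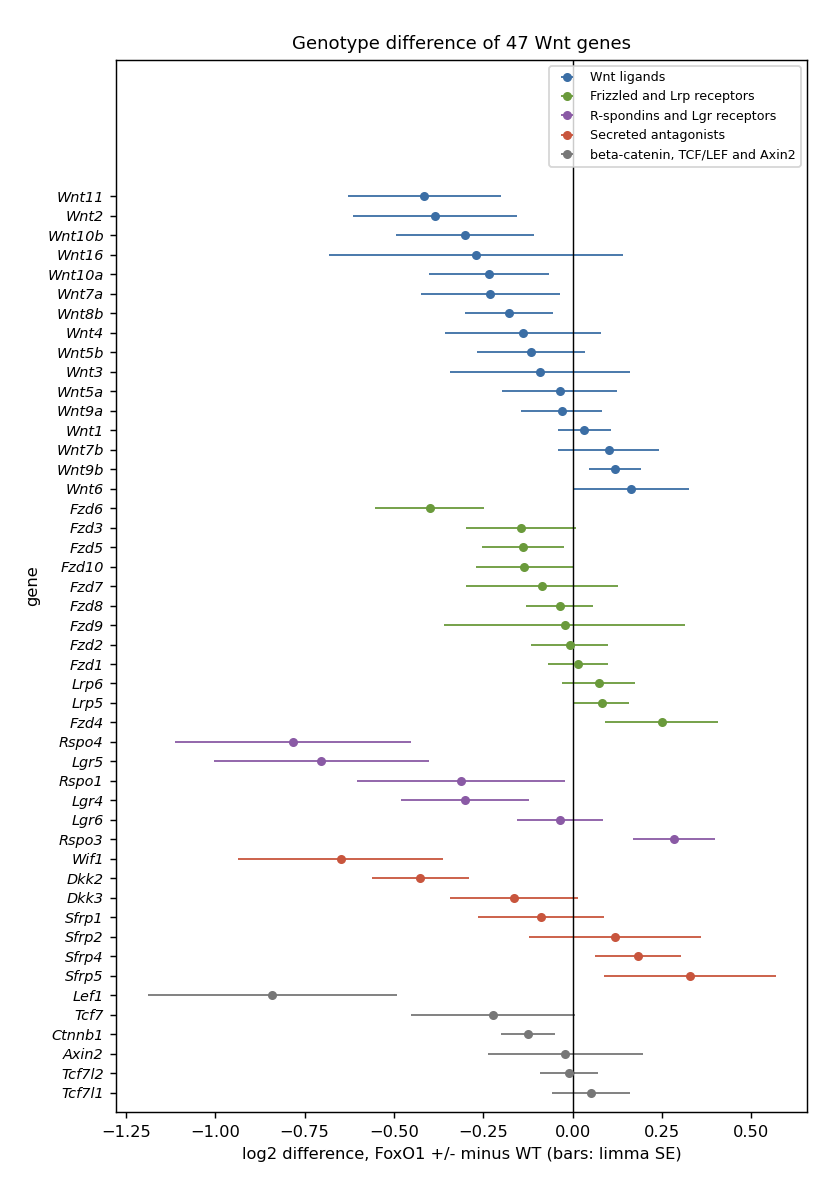
Log2 difference (x axis, FoxO1 +/- minus WT) of the 47 Wnt genes (y axis), grouped by role in colours. Points are the limma estimates from 3 arrays per genotype and bars are standard errors. Rspo4, Lgr5, Wif1 and Lef1 lie farthest to the left, between -0.84 and -0.65, with wide bars, and Rspo3 at 0.28 and Sfrp5 at 0.33 lie farthest to the right.

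The largest differences belonged to genes of different roles: the transcription factor Lef1, the R-spondin Rspo4, the receptor Lgr5 and the antagonist Wif1, each lower by at least 0.5 in the FoxO1 +/- wounds, and these were the only 4 of the 47 with a difference of that size in either direction. Of these 4, Rspo4 was kept through its WT arrays alone, being well above background on 2 FoxO1 +/- arrays. It differed by -0.19 with normexp background correction. A total of 29 members differed by less than 0.2. For 36 members, RefSeq's GRCm38.p6 promoter table held 45 windows. The 250 bases before the annotated start are shown for 5 members that the table holds, namely the member with the lowest p, 3 of the 4 with the largest differences and the ligand with the largest difference: Dkk2 (chr3:132085042-132085291), Lef1 at its first start (chr3:131110047-131110296), Rspo4 (chr2:151842677-151842926), Wif1 (chr10:121033754-121034003) and Wnt11 (chr7:98834862-98835111), all on the plus strand of the genome. Capitals mark a forkhead core motif in Rspo4 and Wif1 and a TCF/LEF motif in Wnt11, and Dkk2 and this start of Lef1 hold neither.

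Dkk2: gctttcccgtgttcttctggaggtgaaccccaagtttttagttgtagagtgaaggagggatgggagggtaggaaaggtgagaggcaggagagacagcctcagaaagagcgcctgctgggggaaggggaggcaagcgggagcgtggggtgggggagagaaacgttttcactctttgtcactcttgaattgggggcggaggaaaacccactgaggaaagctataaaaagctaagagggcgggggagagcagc

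Lef1: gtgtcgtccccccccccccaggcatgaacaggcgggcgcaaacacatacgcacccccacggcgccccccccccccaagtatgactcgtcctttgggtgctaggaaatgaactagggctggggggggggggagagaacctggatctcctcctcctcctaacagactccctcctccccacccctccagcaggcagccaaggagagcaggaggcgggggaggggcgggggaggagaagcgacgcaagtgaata

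Rspo4: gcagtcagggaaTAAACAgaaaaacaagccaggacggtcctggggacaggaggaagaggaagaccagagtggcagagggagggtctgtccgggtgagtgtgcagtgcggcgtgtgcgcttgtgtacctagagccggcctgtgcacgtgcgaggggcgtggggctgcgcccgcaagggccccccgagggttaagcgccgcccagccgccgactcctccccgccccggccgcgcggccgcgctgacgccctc

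Wif1: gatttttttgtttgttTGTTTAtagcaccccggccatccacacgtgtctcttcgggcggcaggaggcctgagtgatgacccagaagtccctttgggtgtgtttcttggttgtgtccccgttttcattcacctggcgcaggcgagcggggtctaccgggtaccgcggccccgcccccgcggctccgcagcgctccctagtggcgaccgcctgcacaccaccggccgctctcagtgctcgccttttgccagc

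Wnt11: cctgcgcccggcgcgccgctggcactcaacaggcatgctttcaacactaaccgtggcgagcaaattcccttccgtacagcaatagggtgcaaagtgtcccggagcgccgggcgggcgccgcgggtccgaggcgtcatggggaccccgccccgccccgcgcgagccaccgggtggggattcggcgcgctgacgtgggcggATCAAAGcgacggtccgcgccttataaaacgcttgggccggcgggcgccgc

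The motifs were read on both strands: CTTTGAA or CTTTGAT for TCF/LEF, TGTTTA for the forkhead core, and TGTTTAC, which contains the core, for FoxO factors. In Rspo4 the match reads TAAACA, the core on the opposite strand, at -238 to -233, where -1 is the last base before the start. Wif1 has TGTTTA at -234 to -229, and Wnt11 has ATCAAAG, the TCF/LEF motif on the opposite strand, at -51 to -45. In windows from 250 bases before to 50 after the start, the TCF/LEF motif was found in 3 of 45 member windows (6.67%), those of Dkk1, Wnt5b and Wnt11, beside 8.65% of all 32851 windows. The forkhead core was found in 5 of 45 (11.1%), those of Rspo4, Wif1, Tcf7, Tcf7l2 and a later start of Lef1, beside 13.4%. In Lef1 the match lies in the bases after that start. The longer FoxO motif was found in 1 of 45 (2.22%), at a start of Tcf7, beside 3.65%. A match describes these letters and is not evidence of binding.

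Among the Wnt ligands, 16 of 19 genes were tested, 12 measured lower and 4 higher in the FoxO1 +/- wounds, with a median difference of -0.13 and 0 at an unadjusted p under 0.05. With normexp background correction Wnt7a and Wnt8b were higher instead of lower. Wnt3a and Wnt8a, ligands of early development, were not well above background on any of the 6 arrays, and Wnt2b was well above it on 2 arrays of each genotype. Wnt8b was well above background on 3 WT arrays and 2 FoxO1 +/- arrays, and differed by -0.18 (SE 0.12). Wnt1, which is expressed mainly in the developing brain, was well above background on all 6 arrays with its brighter probe, which ran from 0.30 to 0.46. Its other probe was well above background on 1 WT array and on 0 FoxO1 +/- arrays, so that these probes disagree on whether the gene was measured.

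Wnt5a, a ligand mostly of the beta-catenin-independent branch that is made by fibroblasts and inflamed skin, was measured at 0.43, 0.25 and -0.02 in WT and at 0.07, 0.04 and 0.44 in FoxO1 +/- wounds. The genotypes overlapped over nearly their whole range (difference -0.04, SE 0.16). Wnt4, an epidermal ligand, stood at -0.87, -1.11 and -1.35 in WT and at -1.35, -1.56 and -0.83 in FoxO1 +/- wounds. Its highest and its lowest array were both FoxO1 +/- arrays (difference -0.14, SE 0.22). Wnt10b, a ligand of the growing hair follicle, was at -3.42, -2.83 and -3.49 in WT and at -3.39, -3.58 and -3.68 in FoxO1 +/- wounds. WT replicate 2 was the high one, and without it the difference of Wnt10b went from -0.30 (SE 0.19) to -0.09.

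Wnt16, made by keratinocytes and around the follicle bulge, varied most of the ligands within both genotypes, at -2.17, -1.22 and -2.28 in WT and at -2.64, -2.42 and -1.42 in FoxO1 +/- wounds. A high array stood apart in each genotype, WT replicate 2 and FoxO1 +/- replicate 3, and the difference was -0.27 (SE 0.41). On the second Wnt16 probe FoxO1 +/- replicate 3 was not high (-2.29, beside -2.64 and -2.27 on replicates 1 and 2), whereas WT replicate 2 was (-1.53, beside -2.27 and -2.29). Wnt11, a ligand that acts mostly without beta-catenin, had the largest difference of the ligands. It stood at -1.04, -0.20 and -0.42 in WT and at -0.90, -1.06 and -0.95 in FoxO1 +/- wounds. WT replicate 1 lay among the FoxO1 +/- arrays and the other WT arrays above them (difference -0.41, SE 0.21, limma adjusted p 0.845), and without WT replicate 1 the difference was -0.66.

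Of the other ligands, Wnt2 differed by -0.39 (SE 0.23), Wnt10a, another follicle and epidermal ligand, by -0.23 (SE 0.17) and Wnt7a by -0.23 (SE 0.19). A single array weighed on each: Wnt2 differed by -0.14 without WT replicate 2, Wnt10a by -0.09 without WT replicate 1 and Wnt7a by -0.43 without FoxO1 +/- replicate 3. Wnt5b, Wnt3 and Wnt9a differed by -0.12, -0.09 and -0.03, and Wnt1, Wnt7b and Wnt6 by 0.03, 0.10 and 0.16. Wnt9b was higher on each FoxO1 +/- array (-3.53, -3.50 and -3.49) than on each WT array (-3.71, -3.55 and -3.61), by 0.12 (SE 0.07, limma adjusted p 0.887). The ligand differences ran from -0.41 to 0.16, with standard errors of 0.07 to 0.41.

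All 12 Frizzled and Lrp receptors, the proteins that take up the Wnt signal, were well above background on all 6 arrays. A total of 8 were measured lower and 4 higher, with a median difference of -0.03, but Fzd8 and Fzd9 turned higher with normexp correction and Fzd1 lower with quantile normalization. Fzd6, a receptor of planar cell polarity that orients hair follicles, was at 0.20, -0.38 and -0.11 in WT and at -0.55, -0.52 and -0.43 in FoxO1 +/- wounds. Every FoxO1 +/- array lay below every WT array, but WT replicate 2 and FoxO1 +/- replicate 3 were near each other at -0.38 and -0.43. Fzd6 averaged -0.10 ± 0.29 (SD, n = 3) in WT wounds against -0.50 ± 0.06 (SD, n = 3) in FoxO1 +/- wounds, which is 0.758 of the WT level (log2 difference -0.40, SE 0.15, limma adjusted p 0.798). Without WT replicate 1 the difference was -0.25. Within slide row 1 it was -0.45, with replicate 1, the lowest for Fzd6, as the only FoxO1 +/- array.

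Fzd10 was at 1.13, 0.71 and 0.89 in WT and at 0.68, 0.69 and 0.95 in FoxO1 +/- wounds, with overlapping arrays and a difference of -0.14 (SE 0.14). Fzd3, which shares polarity functions with Fzd6, differed by -0.14 (SE 0.15), Fzd8 by -0.04 and Fzd2 by -0.01, whereas Fzd1 differed by 0.02 and Fzd4 by 0.25 (SE 0.16), or 0.10 without WT replicate 2. The co-receptors Lrp5 and Lrp6 differed by 0.08 (SE 0.08) and 0.07 (SE 0.10). Fzd9 ranged from -1.79 to -1.03 in WT and from -2.13 to -0.96 in FoxO1 +/- wounds, the widest FoxO1 +/- range among the receptors, around a difference of -0.02 (SE 0.34). Probes of 3 receptors disagreed in sign. Fzd5 differed by -0.14 on its brighter probe and by 0.25 (SE 0.15) on the other, Fzd7 by -0.09 (SE 0.21) and 0.01, and Lrp6 by 0.07 and -0.01.

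The R-spondins and Lgr receptors, which set how long Frizzled receptors stay on the surface, had the lowest median difference of the role groups, -0.31 over 6 of 7 genes, with 5 lower and 1 higher, or 4 and 2 with normexp correction, under which Lgr6 turned. Rspo4, among the 5 lower, was kept through its WT arrays alone. Rspo2 was well above background on 2 WT arrays and 1 FoxO1 +/- array and was not tested. Lgr5, a receptor that marks stem cells of the hair follicle bulge and germ, was at 0.27, -0.98 and -0.27 in WT and at -0.98, -1.06 and -1.06 in FoxO1 +/- wounds. WT replicates 1 and 3 were high, and WT replicate 2 lay at the level of the FoxO1 +/- arrays, which spanned only 0.08. Lgr5 averaged -0.33 ± 0.63 (SD, n = 3) in WT wounds against -1.03 ± 0.05 (SD, n = 3) in FoxO1 +/- wounds (log2 difference -0.70, SE 0.30, limma adjusted p 0.820). Without WT replicate 1 it differed by -0.40.

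Rspo4, an R-spondin known for nail growth, was at -3.69, -5.00 and -4.0 in WT and at -5.15, -4.99 and -4.90 in FoxO1 +/- wounds. WT replicates 1 and 3 were high as for Lgr5, and WT replicate 2 lay among the FoxO1 +/- arrays, of which 2 were well above background. The difference was -0.78 (SE 0.33, limma adjusted p 0.820). It was -0.19 with normexp background correction, whose offset of 50 by itself shrinks differences of dim probes. Rspo1 was at -0.31, -1.11 and 0.07 in WT and at -0.75, -0.69 and -0.86 in FoxO1 +/- wounds. Its FoxO1 +/- arrays lay between WT replicate 2 and the other WT arrays (difference -0.31, SE 0.29), and without WT replicate 3 the difference was -0.05.

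Rspo3, which in adult tissue is made by stromal and endothelial cells, was the R-spondin that ran the other way. It was at -1.56, -1.59 and -1.60 in WT and at -1.51, -1.28 and -1.10 in FoxO1 +/- wounds. The WT arrays lay within 0.03 of each other, FoxO1 +/- replicate 1 was just above them, and replicates 2 and 3, those of slide row 2, were higher. Rspo3 averaged -1.58 ± 0.02 (SD, n = 3) in WT wounds against -1.30 ± 0.21 (SD, n = 3) in FoxO1 +/- wounds (log2 difference 0.28, SE 0.12, limma adjusted p 0.798), and within slide row 1 the difference was 0.07. Lgr4, the most widely expressed receptor of the family, differed by -0.30 (SE 0.18). Lgr6, a marker of stem cells above the bulge, was at -4.30, -4.38 and -4.21 in WT and at -4.11, -4.51 and -4.36 in FoxO1 +/- wounds, with FoxO1 +/- arrays at both ends (difference -0.04, SE 0.12).

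Of the secreted antagonists 7 of 8 were tested, 4 measured lower and 3 higher, with a median difference of -0.09. Dkk1, the best known blocker of Lrp6, was not well above background on any of the 6 arrays. Dkk2, its relative, was at -0.06, -0.34 and -0.06 in WT and at -0.76, -0.63 and -0.35 in FoxO1 +/- wounds. Every FoxO1 +/- array was below every WT array, and the nearest arrays, WT replicate 2 and FoxO1 +/- replicate 3, lay at -0.34 and -0.35. Dkk2 averaged -0.15 ± 0.16 (SD, n = 3) in WT wounds against -0.58 ± 0.21 (SD, n = 3) in FoxO1 +/- wounds, which is 0.744 of the WT level (log2 difference -0.43, SE 0.14, limma adjusted p 0.682). Within slide row 1 it differed by -0.60, but the only FoxO1 +/- array there is replicate 1, the lowest for Dkk2.

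Wif1, the Wnt inhibitory factor, was at -0.98, -1.45 and -0.52 in WT and at -1.45, -1.38 and -2.06 in FoxO1 +/- wounds. WT replicates 1 and 3 were again the high ones, WT replicate 2 sat at the level of FoxO1 +/- replicates 1 and 2, and FoxO1 +/- replicate 3 was the lowest. The difference of -0.65 (SE 0.29, limma adjusted p 0.825) was -0.42 without WT replicate 3. Dkk3, a divergent Dkk protein whose part in Wnt signalling is less clear, was at 2.40, 1.92 and 2.25 in WT and at 2.07, 2.26 and 1.74 in FoxO1 +/- wounds, with overlapping arrays (difference -0.16, SE 0.18). Without FoxO1 +/- replicate 3 the difference of Dkk3 was -0.02.

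The secreted Frizzled-related proteins had no common direction. Sfrp2, a product of dermal fibroblasts, was at 4.78, 5.41 and 4.61 in WT and at 4.78, 5.32 and 5.06 in FoxO1 +/- wounds. Replicate 2 of each genotype was its highest array, and the genotypes overlapped (difference 0.12, SE 0.24). Sfrp4 was at 3.42, 3.07 and 3.02 in WT and at 3.37, 3.34 and 3.35 in FoxO1 +/- wounds, where the arrays lay within 0.03 of each other and inside the WT range (difference 0.18, SE 0.12). Sfrp5, which adipose tissue expresses, ranged from 0.75 to 1.31 in WT and from 0.85 to 1.60 in FoxO1 +/- wounds (difference 0.33, SE 0.24), and Sfrp1 differed by -0.09 (SE 0.18). For Sfrp5 the difference was -0.14 within slide row 1, where replicate 1 is the only FoxO1 +/- array.

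Inside the cell, all 6 of Ctnnb1, the TCF/LEF genes and Axin2 were well above background on every array, 5 measured lower and 1 higher, or 3 and 3 with normexp correction, and the median difference was -0.07. Ctnnb1, which encodes beta-catenin, was at 3.85, 3.71 and 3.72 in WT and at 3.61, 3.69 and 3.61 in FoxO1 +/- wounds. Every FoxO1 +/- array was below every WT array, by a small amount (difference -0.12, SE 0.07, limma adjusted p 0.876), which is 0.917 of the WT level. Axin2, the feedback inhibitor often read as the output of the pathway, was at -2.21, -2.81 and -2.26 in WT and at -2.29, -2.28 and -2.79 in FoxO1 +/- wounds. A low array stood apart in each genotype, and the difference was -0.02 (SE 0.22). On the second Axin2 probe WT wounds were at -3.70, -4.04 and -4.09 and FoxO1 +/- wounds at -3.63, -3.83 and -3.65, a difference of 0.24 (SE 0.13), so that no direction can be given for this gene.

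Lef1, the TCF/LEF factor of the hair matrix and the dermal papilla, had the largest difference of all members, -0.84 (SE 0.35, limma adjusted p 0.806). It was at -3.58, -4.56 and -3.24 in WT and at -4.47, -4.49 and -4.95 in FoxO1 +/- wounds. WT replicates 1 and 3 were high, WT replicate 2 lay between the FoxO1 +/- arrays, and FoxO1 +/- replicate 3 was close to the lowest level that counts as well above background on that array. The difference of Lef1 was -0.56 without WT replicate 3 and -0.24 with normexp background correction. Tcf7 was at -2.21, -3.0 and -2.33 in WT and at -2.50, -2.87 and -2.84 in FoxO1 +/- wounds. Its WT replicate 2 was the lowest of the 6 arrays (difference -0.22, SE 0.23). The Tcf7 difference was -0.47 without that array and -0.07 without WT replicate 1, and its second probe was well above background on 2 WT arrays and 1 FoxO1 +/- array. Tcf7l1, a repressor in follicle stem cells, differed by 0.05 (SE 0.11) and Tcf7l2 by -0.01 on its brightest probe, with 0.04 and -0.18 on its other kept probes.

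**Figure D2:**
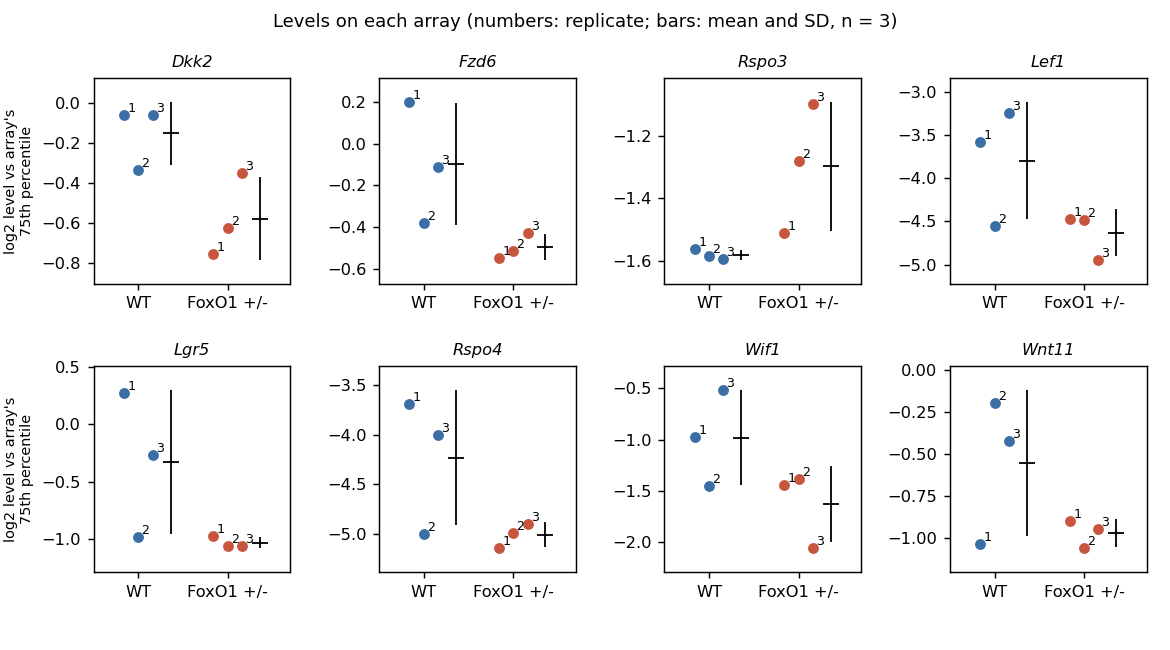
Log2 level relative to each array's 75th percentile (y axis, scale differs by panel) of 8 Wnt genes on the WT and FoxO1 +/- arrays. Numbered points are replicates, and the bar beside each group is its mean with the SD (n = 3). For Lef1, Lgr5, Rspo4 and Wif1, WT replicates 1 and 3 lie above WT replicate 2, which sits with the FoxO1 +/- arrays.

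The same WT array was low for many members. WT replicate 2 was the lowest of the 3 WT arrays for 28 of 47 members (59.6%), beside 33.8% of all genes. By role it was the lowest for 10 of 12 Frizzled and Lrp receptors, 5 of 6 R-spondins and Lgr receptors, 4 of 7 antagonists and 5 of 6 genes of the beta-catenin group. For the ligands it was the lowest for 4 of 16 and the highest for 8 of 16, near the shares of all genes, 33.8% and 41.0%. Wnt2, Wnt10b, Wnt11 and Wnt16 were among those 8. The median SD over WT arrays was 0.25 for members and 0.13 for all genes, and over FoxO1 +/- arrays 0.19 and 0.12. The WT spread was the larger for 32 of 47 members (68.1%), beside 54.7% of all genes.

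**Figure D3:**
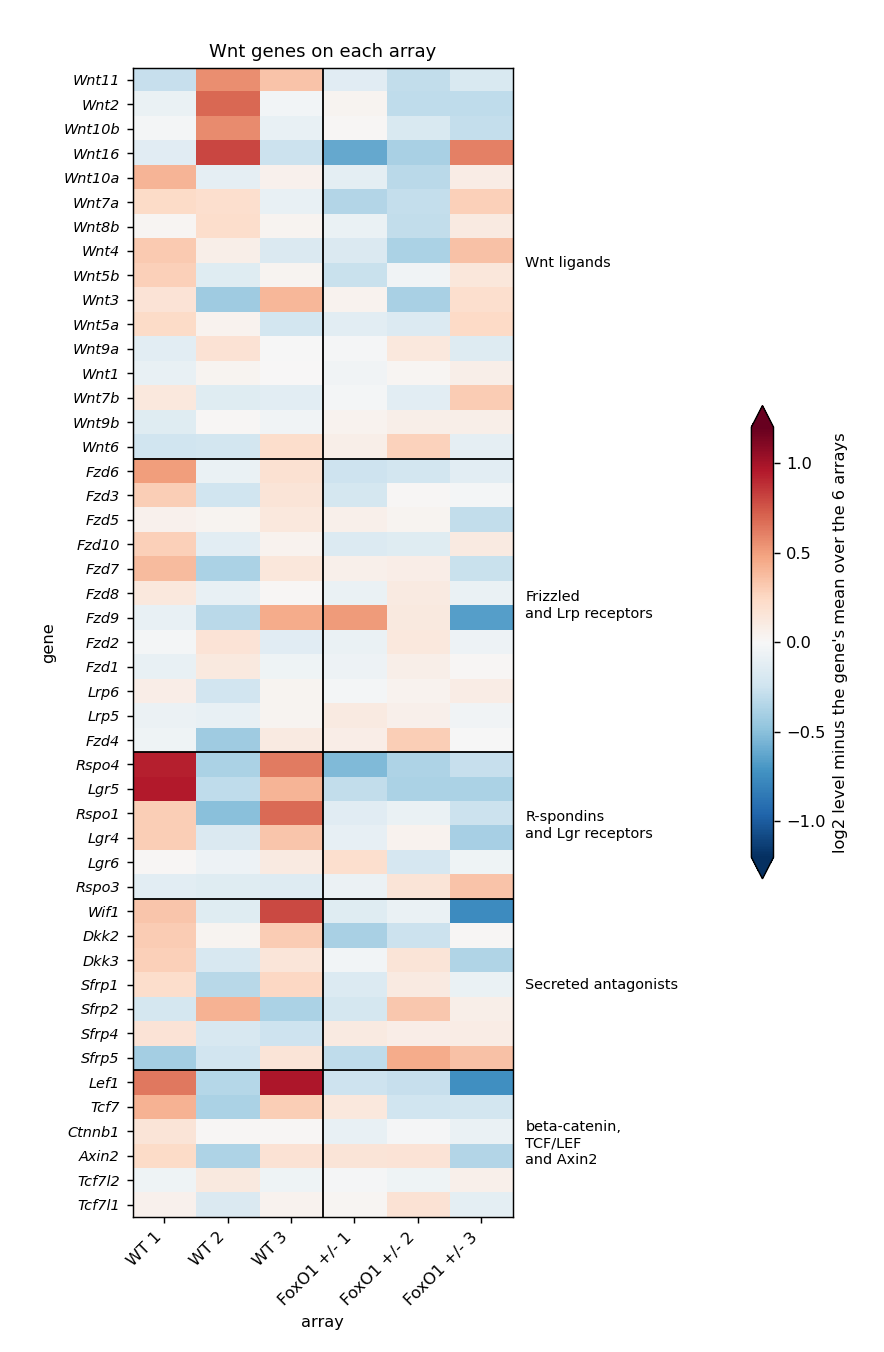
Log2 level of each of the 47 Wnt genes (rows, grouped by role) on the 6 arrays (columns), as the distance from the gene's own mean over the arrays. Red is above and blue below that mean, and the vertical line parts WT from FoxO1 +/- arrays. The second column is blue for most receptors, R-spondins and Lgr receptors and red for Wnt2, Wnt10b, Wnt11 and Wnt16.

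The count of members at an unadjusted p under 0.05 changed most when this array was left out. Without WT replicate 2, 11 members were lower at an unadjusted limma p under 0.05 and 0 were higher, beside 4.64% of all genes lower and 4.46% higher. They were Fzd3, Fzd6, Lgr4, Lgr5, Rspo1, Rspo4, Dkk2, Sfrp1, Wif1, Lef1 and Tcf7, and none passed an adjusted p of 0.05, the lowest being 0.0876 for Rspo4, which was kept through its WT arrays alone. For each of these 11, WT replicate 2 was the lowest WT array, so leaving it out raised the WT mean. The count is therefore not separate support for a genotype difference. Without WT replicate 2 the genotypes did not overlap for 14 members that were lower, beside 10.8% of all genes, and for 3 that were higher. In either direction they did not overlap for 17 of 47 members, beside 4386 of 16408 genes. Without WT replicate 3, 0 members had an unadjusted p under 0.05, beside 2.12% of all genes lower and 2.54% higher. Without FoxO1 +/- replicate 2 there were 0 as well, beside 1.91% lower and 2.22% higher. Without WT replicate 1 the members at that p were Wnt11, lower, and Sfrp4, higher (2.45% and 3.08% of all genes), neither of which was among them with all 6 arrays. Without FoxO1 +/- replicate 1 they were Rspo3 and Sfrp5, both higher (3.86% of all genes), and without FoxO1 +/- replicate 3 Wnt7a and Dkk2, both lower (2.78%), of which Sfrp5 and Wnt7a were new. At that p the counts with an array other than WT replicate 2 left out lay near the shares of all genes. The count of lower members without WT replicate 2 lay above its share. Non-overlapping lower members numbered 9 of 47 without FoxO1 +/- replicate 3 and 7 without FoxO1 +/- replicate 1, above the 9.32% and 7.77% of all genes. They numbered 4, 3 and 3 without WT replicate 1, WT replicate 3 and FoxO1 +/- replicate 2, beside 8.09%, 9.15% and 8.29%. Leaving out some single array moved the difference by over 1.5 times, or turned it, for 45 of 47 members, all but Dkk2 and Lef1.

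**Figure D4:**
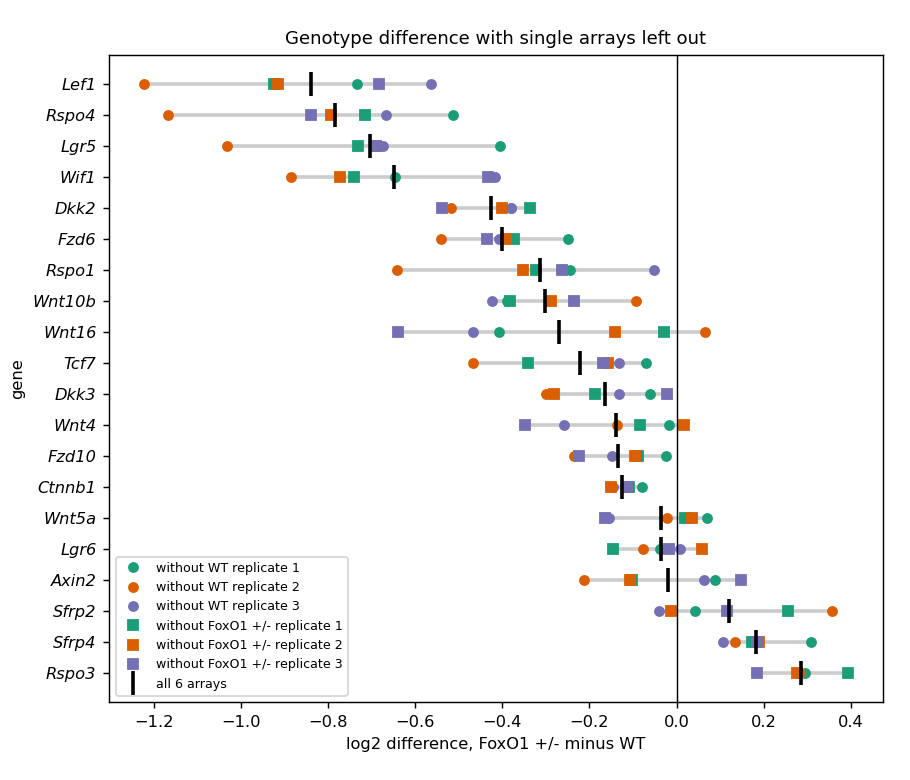
Log2 difference (x axis, FoxO1 +/- minus WT) of 20 Wnt genes (y axis) with all 6 arrays (black bars) and with each array left out in turn (circles for a WT array, squares for a FoxO1 +/- array, colours for the replicate number). Without WT replicate 2 the differences of Lef1, Rspo4 and Lgr5 are the lowest, at -1.22, -1.17 and -1.03. The differences of Wnt16, Wnt5a, Lgr6, Axin2, Wnt4 and Sfrp2 each cross 0 with some array left out, for Wnt16 alone of these with WT replicate 2.

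Krt15, Lhx2 and Sox9, 3 of the 5 markers listed for hair follicle stem cells, were high on WT replicates 1 and 3. The bulge stem cell list (Krt15, Cd34, Lhx2, Sox9 and Nfatc1, all 5 tested) had a mean level of 2.90, 1.95 and 2.80 in WT and of 2.07, 1.88 and 1.75 in FoxO1 +/- wounds. As for Lgr5, WT replicates 1 and 3 were high and WT replicate 2 was at the FoxO1 +/- level. Lhx2, a factor of bulge stem cells, was at 0.71, -1.41 and 0.43 in WT and at -1.50, -1.79 and -1.68 in FoxO1 +/- wounds, and Sox9 at 0.33, -1.50 and -0.45 and at -1.34, -1.43 and -1.56. Cd34, which endothelial cells and fibroblasts also express, and Nfatc1 differed by only 0.10 and -0.11, so that the list's shift came from 3 of its genes. Neither Lhx2 (difference -1.56, SE 0.55, limma adjusted p 0.742) nor another gene of the list passed the adjustment.

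The hair shaft and inner root sheath list (17 of 20 genes tested) had a mean level of 0.83 on WT replicate 1 and between -3.16 and -2.51 on the other 5 arrays. WT replicate 1 was therefore far above the rest, with Krt71, an inner root sheath keratin, at 4.93 beside -6.43 to -3.30 elsewhere, and WT replicate 3 was not. On FoxO1 +/- replicates 2 and 3 Krt71 (-6.43 and -5.78) lay below the lowest level well above background (-5.76 and -5.04). It was thus kept through its WT arrays alone. Krt33a, Krt34 and Krt35 also lay below that level on FoxO1 +/- replicate 3, so the list's FoxO1 +/- means hold some signal not well above background. Krt25 and Dsg4, markers of the same cells, were well above background on 1 WT array only, as was Corin of the dermal papilla. The other dermal papilla markers (5 of 6 tested) averaged between -1.47 and -1.15 on every array. Fewer cells of a type and less RNA per cell cannot be told apart in whole wound tissue, and the part of follicle cells in the differences of Lgr5, Lef1, Rspo4 and Wif1 was not tested.

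Other tissue markers differed less, or in the opposite direction. Adipocyte markers (6 of 6 tested) averaged 3.02, 2.03 and 2.59 in WT and 3.10, 3.32 and 3.54 in FoxO1 +/- wounds, which did not overlap. Endothelial markers (4 of 4 tested) averaged 1.26, 1.2 and 1.29 in WT and 1.34, 1.45 and 1.49 in FoxO1 +/- wounds, lowest on FoxO1 +/- replicate 1 and highest on replicate 3, as Rspo3 was among those arrays. Pecam1, Kdr and Tek had that order, but Cdh5 did not, at 2.25, 2.40 and 2.15 in FoxO1 +/- wounds. The part of adipocytes and endothelial cells in Sfrp5 and Rspo3 was not tested. Keratinocyte markers averaged between 5.87 and 6.34 and fibroblast markers between 6.94 and 7.10 on the 6 arrays, and T cell markers between -0.57 and 0.18, the highest on WT replicate 3. Macrophage markers (4 of 5 tested) averaged 5.10, 5.231 and 5.14 in WT and 5.36, 5.234 and 5.28 in FoxO1 +/- wounds. These means did not overlap, but replicate 2 of each genotype nearly met. Neutrophil markers (3 of 4) lay between 6.58 and 7.28 and skeletal muscle markers (6 of 6) between 4.25 and 5.94.

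**Figure D5:**
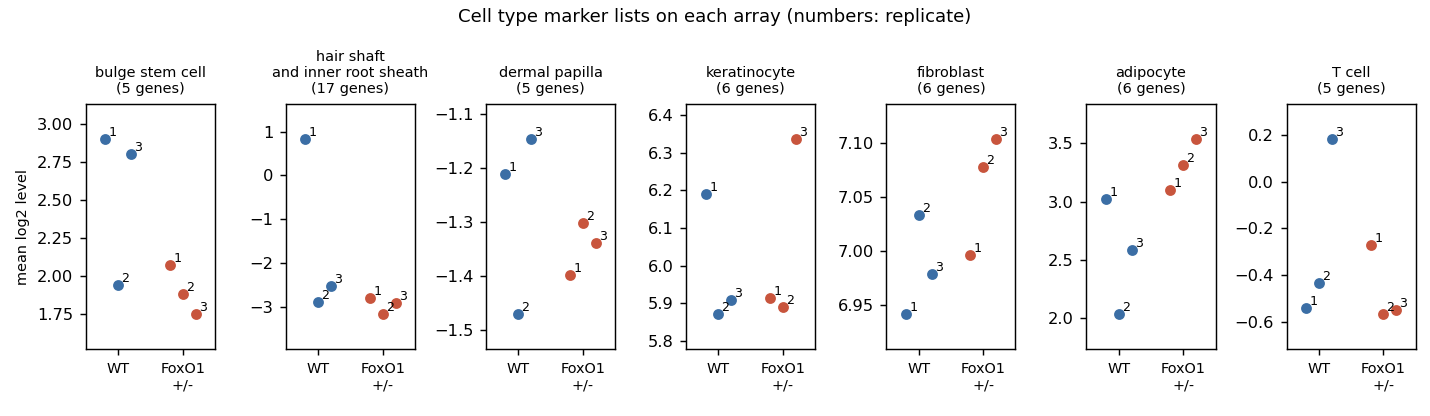
Mean log2 level (y axis, scale differs by panel) of marker lists of 7 cell types on the WT and FoxO1 +/- arrays, with numbered points for replicates and the number of genes tested in each title. The bulge stem cell list is high on WT replicates 1 and 3, the hair shaft list on WT replicate 1, and the adipocyte list is higher on every FoxO1 +/- array than on every WT array.

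Of 56 other genes of the pathway, 52 were tested and 0 passed an adjusted p of 0.05, with 22 higher, 30 lower and a median difference of -0.03. The genotypes did not overlap for 4 that were higher (Prickle1, Dvl3, Tle3 and Msx1) and 3 that were lower (Sostdc1, Vangl1 and Gsk3a), beside 6.91% of all genes higher and 4.56% lower, which is near the same share. Sostdc1, a secreted antagonist of Wnt and BMP signals expressed in the hair follicle, was at 0.48, 0.09 and 0.84 in WT and at -0.64, -0.41 and -0.67 in FoxO1 +/- wounds. It had the largest difference of the pathway (-1.04, SE 0.20, limma adjusted p 0.369), and unlike Lgr5 or Lef1 it was higher on WT replicate 2 than on any FoxO1 +/- array. Over all settings tried, its lowest adjusted p was 0.0968. All 8 tested genes among the other antagonists were measured lower, with a median of -0.09, although Frzb and Apcdd1 turned higher with normexp correction. On FoxO1 +/- replicate 3 Frzb was at -5.23, below the lowest level well above background on that array (-5.04).

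Of the polarity genes 6 were measured lower and 2 higher, with a median difference of -0.15. Of the cytoplasmic parts of the pathway 4 were lower and 5 higher, with a median of 0.01. Vangl1, a core polarity protein, was at 3.02, 2.77 and 2.79 in WT and at 2.32, 2.52 and 2.5 in FoxO1 +/- wounds, lower on each FoxO1 +/- array (difference -0.41, SE 0.10, limma adjusted p 0.540). Prickle1, another polarity gene, was at 1.83, 1.80 and 1.59 in WT and at 1.87, 2.07 and 2.0 in FoxO1 +/- wounds, higher on each (difference 0.24, SE 0.10, limma adjusted p 0.798). Dvl3, a Dishevelled protein that passes the signal on from Frizzled, was at 4.11, 4.16 and 4.06 in WT and at 4.28, 4.34 and 4.43 in FoxO1 +/- wounds (difference 0.24, SE 0.07, limma adjusted p 0.672). The genes that make and clear active ligand differed little: Porcn, which adds the lipid, by -0.22 (SE 0.17), Wls, which carries Wnts to the surface, by -0.04 (SE 0.13), and Notum, which removes the lipid, by 0.01 (SE 0.11). The antagonists Frzb and Apcdd1 differed by -0.12 (SE 0.39) and -0.01 (SE 0.18).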

How the data were processed

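Wound RNA of 6 mice, taken as 1 array each, was hybridised to 1-colour Agilent arrays with Cy3-labelled cRNA made from 200 ng RNA, per the labels. The deposited scanner files hold spot intensity on a linear scale, background-subtracted and detrended by the authors with Agilent Feature Extraction 10.7.1.1, per the file headers (9.1 in the submitters' processing notes), and not scaled between arrays. Outlier-flagged spots were dropped here, spots of a probe were averaged on the log2 scale, and arrays were scaled by subtracting the 75th percentile of their non-control probes. Accessions without versions gave symbols through RefSeq's GRCm38.p6 gene table: 26582 of 28116 probes with such an accession matched. The array's annotation uses another build, so the RefSeq promoter windows are the only coordinates printed. A probe was kept if well above background on all 3 arrays of a genotype, and the brightest kept probe stood for its gene. Probes of different genes differ in response, so their levels are not compared.

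FoxO1 +/- was compared with WT by limma 3.58.1 in R 4.3.3 (lmFit and eBayes, two-sided), adjusted by Benjamini-Hochberg over 16408 genes. The script was tested on simulated data. The members, gene lists and tests were chosen with earlier results of these data known. Values on every array are given for members with non-overlapping genotypes and an unadjusted p under 0.05, for the 5 with the widest WT range, and for a fixed set of 16. Wnt9b, Wnt11, Tle3, Msx1, Gsk3a and the markers named singly were picked out after their values were seen. The alternatives were another background correction, other scalings, filters and probe choices, the authors' value table, slide row, replicate number and leaving out each array. The files hold no mean spot signal, so the normexp alternative used the median signal and median background, not the mean signal that had been planned. Replicate numbers did not pair the arrays: same-numbered arrays correlated at -0.07, -0.14 and -0.30 in their deviations. The number of arrays limits the precision.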

Additional observations from a re-analysis of the deposited data

How the results depend on the processing

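Of 56 genes followed under 16 alternatives, 28 kept their direction in all of them and 28 did not. The count of members past an adjusted p of 0.05 stayed at 0 in each, beside 0 to 11 at an unadjusted p under 0.05. With normexp background correction the sign turned for Wnt7a (0.0056), Wnt8b (0.0595), Fzd8 (0.0135), Fzd9 (0.0151), Lgr6 (0.0719), Axin2 (0.0419), Tcf7l2 (0.0054), Frzb (0.1357) and Apcdd1 (0.0077). Quantile normalization turned Fzd1 (-0.004) and Notum (-0.0072), and a percentile over probes detected on all arrays turned the same genes (-0.0002 and -0.0009). The mean of the kept probes turned Fzd5 (0.0572) and Axin2 (0.109). With slide row as a block, and equally within slide row 1, which compares 3 WT arrays with a single FoxO1 +/- array assumed to vary like the others, Wnt1 (-0.0292), Fzd1 (-0.0539), Fzd7 (0.0196), Fzd9 (0.4951), Lgr6 (0.1848), Sfrp2 (-0.1528), Sfrp5 (-0.1395), Axin2 (0.1437), Tcf7 (0.0131), Notum (-0.2182) and Frzb (0.0129) turned. In both fits Dkk2 was the 1 member at an unadjusted p under 0.05, beside 1.40% of all genes lower and 1.52% higher with the block and 1.46% and 1.65% within row 1, and Fzd6 and Rspo3 lost that call. Within row 1 the genotypes did not overlap for 16 members and 7361 of all genes, since a lone array overlaps less easily.

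The genes past an adjusted p of 0.05 over the whole table numbered 1 in the result reported, 0 with normexp, with the detected-probe percentile, with probes well above background on all 6 arrays and with the replicate block, 2 with quantile normalization, 3 without a filter on dim probes, 7 with slide row as a block and 4 within row 1. The replicate block, with numbers that did not pair the arrays, gave 2 members at an unadjusted p under 0.05, beside 2.54% of all genes lower and 2.30% higher: Dkk2 kept that call, Lgr5 gained it, and Fzd6 and Rspo3 lost it. Leaving out single arrays gave 0 to 28 genes past the adjusted threshold, 0 to 11 members at an unadjusted p under 0.05, 5 to 17 members and 2970 to 4386 genes with non-overlapping genotypes, the highest of each without WT replicate 2. These fits turned the sign of the following, given as the lowest and highest difference: Wnt1 (-0.0025 to 0.0647), Wnt16 (-0.6396 to 0.064), Wnt3 (-0.3289 to 0.0842), Wnt4 (-0.3478 to 0.0179), Wnt5a (-0.1641 to 0.0687), Wnt7b (-0.0258 to 0.1906), Wnt9a (-0.0994 to 0.0503), Fzd1 (-0.0235 to 0.0772), Fzd2 (-0.0764 to 0.0737), Fzd7 (-0.299 to 0.0821), Fzd8 (-0.0975 to 0.0169), Fzd9 (-0.2811 to 0.3017), Lrp6 (-0.0222 to 0.1333), Lgr6 (-0.145 to 0.0579), Sfrp1 (-0.2755 to 0.0157), Sfrp2 (-0.0412 to 0.3574), Axin2 (-0.2119 to 0.1488), Tcf7l1 (-0.0227 to 0.1211), Tcf7l2 (-0.0403 to 0.0472), Wls (-0.1291 to 0.0672), Notum (-0.0493 to 0.1309), Frzb (-0.4386 to 0.2651) and Apcdd1 (-0.197 to 0.1396). The cause of these turns was not tested. Most are of genes whose difference is small beside its error, and levels near or below the lowest signal well above background limit Wnt7a, Wnt8b, Rspo4, Lgr6, Lef1 and Frzb.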
